A study of Chlamydomonas reinhardtii with 8 samples.

Results

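Wild-type (WT) cells of the 2 mating types of Chlamydomonas reinhardtii, a green alga that lives as single cells, were compared by RNA-seq. The comparison takes the WT mt+ libraries (strain CC-5155) against the WT mt- libraries (strain CC-5325) of a deposited count table, and it contrasts 4 of the 8 libraries of the study over 15263 of the 17693 genes, those with enough reads for a test. Each group held 2 libraries that the titles call biological replicates. Strain and mating type changed together, so a difference between CC-5155 and CC-5325 that has nothing to do with mating cannot be told apart from one that has, and the labels say no more about the parentage of either strain. All cells were vegetative and were grown in the light in a medium with Tris, acetate and phosphate.

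The other 4 libraries carry the label dnmt1, for a knockout of the DNA cytosine methyltransferase DNMT1, and comprise 2 libraries of mt+ cells (a CC-5155 background, per the titles) and 2 of mt- cells (CC-5325). No library is in both contrasts, but the spread of each gene was estimated over all 8 libraries, so the libraries labelled dnmt1 enter the errors and adjusted p-values of the WT contrast. Their own mt+ against mt- contrast is set beside the WT one below. The locus listed for DNMT1, DMT1 (Cre10.g461750), had 28.2 and 28.3 CPM (read counts scaled to the library's total and composition) in WT mt+ and 28.7 and 24.5 CPM in WT mt-. Its level was 16.02 and 13.2 CPM where the label was dnmt1 mt+, and 84.0 and 91.05 CPM where it was dnmt1 mt-. The WT groups overlapped (log2 fold change of mt+ over mt- 0.08 ± 0.12, edgeR, adjusted p = 0.669). The libraries labelled dnmt1 mt- lay above both WT groups. RNA of the locus does not show whether a working protein was made. The genotype was not tested, so dnmt1 below is the label alone.

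Chlamydomonas is haploid, and its mating type is set by a region of chromosome 6 that the mating types carry in different, rearranged forms and between which crossing-over is suppressed. Some genes of that region exist in one mating type only, and many others are carried by both as diverged copies. Both strains were counted on the same gene IDs. For a gene of this region, few or no reads may mean a missing or diverged copy as well as little RNA, which was not tested. Gametes form when nitrogen runs out, so the mating programme itself is largely silent in vegetative cells.

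The vegetative label was checked against 3 genes of mating and gametes. GSP1 (Cre02.g109650), a homeodomain protein of plus gametes, had 1 and 0 reads in WT mt+ and 6 and 6 reads in WT mt-. GSM1 (Cre08.g375400), its partner in minus gametes, had 2 and 6 reads in WT mt+ and 12 and 8 reads in WT mt-. GEX1 (Cre06.g280600), a protein of nuclear fusion, had 0 and 2 reads in WT mt+ and 2 and 0 reads in WT mt-. None of the 3 had enough reads for a test.

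Library totals ran from 12204374 to 21115955 counts. Over genes (not independent of each other), log2 CPM of the WT mt+ libraries had a Pearson's r of 0.980 and that of the WT mt- libraries one of 0.991, and the SD of the log2 difference was 0.469 in the mt+ pair and 0.315 in the mt- pair. A gene is called below when its adjusted p, from edgeR's quasi-likelihood test with Benjamini-Hochberg adjustment over all 15263 genes, is under 0.05. Fold changes are log2 of mt+ over mt-, given ± a standard error derived from the test, and are positive where mt+ was higher. Symbols come from a hand-written list in the standard nomenclature and stand beside their locus IDs, since no file used here pairs them, and IDs without a symbol are given no name or role.

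Between WT mt+ and WT mt-, 3280 genes were called, 21.5% of those tested. Of these 1615 were higher in mt+ (10.6%) and 1665 were lower (10.9%). Most differences were small: 470 genes (3.08%) were called with at least a 2-fold difference, 185 higher (1.21%) and 285 lower (1.87%) in mt+. The median log2 fold change over all tested genes was 0.02. With library size alone as the scaling, 37.9% of the calls were higher in mt+, against 49.2% with TMM scaling. The calls depended on single libraries. Leaving out WT mt+ replicate 2 gave 2499 genes higher in mt+. Leaving out WT mt- replicate 1 gave 566 higher and 740 lower, leaving out its replicate 2 gave 664 and 806, and the 4 WT libraries fitted alone gave 791 and 980.

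The largest differences between the strains were those of chromosome 6 genes. Cre06.g252743 had 139 and 192 reads in WT mt+ and none in either WT mt- library, and it had 136 and 125 reads in the libraries labelled dnmt1 mt+ and again none in those labelled dnmt1 mt-. Its level in WT mt+, 11.6 ± 0.338 CPM (SD, n = 2), was at least 69.0-fold higher than a floor of 3 reads per WT mt- library. Reads of this gene came from every mt+ library and from no mt- library. It was the 1 gene with no read in WT mt- and at least 10 reads in each WT mt+ library.

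Cre06.g253051 had 16.7 and 12.3 CPM in WT mt+ and 0.0887 and 0.270 CPM in WT mt-, a log2 fold change of 6.41 ± 0.37 (edgeR, adjusted p = 1.93e-08). Cre06.g252892 had 6.80 and 10.7 CPM in WT mt+ and 0.177 and 0.270 CPM in WT mt-, a log2 fold change of 5.31 ± 0.39 (edgeR, adjusted p = 4.50e-07). Both mt+ libraries stood far above both mt- libraries in each gene, and the libraries labelled dnmt1 gave log2 fold changes of 6.18 ± 0.37 and 5.88 ± 0.45 for the same genes. Cre06.g249350, whose ID comes before those of the mating-type region, was less sharply divided, with 27.7 and 24.2 CPM in WT mt+ and 3.15 and 4.65 CPM in WT mt- (2.76 ± 0.18, edgeR, adjusted p = 1.37e-07). It thus had reads in both strains, without overlap between them. Cre06.g252750 had few reads, 8 and 18 in WT mt+ and 0 and 0 in WT mt-, and the libraries labelled dnmt1 likewise held reads of it in mt+ alone.

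On the mt- side the divided genes with the most reads had IDs whose number begins with 8, a series with no match in the reference table used here. Cre06.g800595 had 0.340 and 0.649 CPM in WT mt+ and 228 and 256 CPM in WT mt-, a log2 fold change of -8.84 ± 0.17 (edgeR, adjusted p = 1.36e-14). It was -8.81 ± 0.16 in the libraries labelled dnmt1. Cre06.g800600 had no read in WT mt+ and 973 and 659 reads in WT mt-, which puts mt+ at least 203-fold lower. The mt- libraries alone held reads of this gene, in WT and in the libraries labelled dnmt1. Cre06.g800601 had no read in WT mt+ and 542 and 324 reads in WT mt-, at least 106-fold lower in mt+, and Cre06.g800589 had none in WT mt+ and 27 and 26 reads in WT mt-, at least 6.83-fold lower. Neither gene had a read in the libraries labelled dnmt1 mt+. Of the older numbering, Cre06.g252050 had 0 and 1 reads in WT mt+ and 20 and 12 reads in WT mt-, and 4 and 0 reads in dnmt1 mt+ and 14 and 26 reads in dnmt1 mt-.

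Another 2 genes had no read in WT mt+ and at least 10 reads in each WT mt- library, Cre06.g255550 and Cre12.g526559, which brings the count to 5. Unlike the other 3, both had reads in mt+ elsewhere: Cre06.g255550 had 4 and 0, and Cre12.g526559 had 9 and 4, in the libraries labelled dnmt1 mt+. Both counts change with the limit on reads: where up to 2 reads per library were allowed in the low group, 4 genes were found on the mt+ side and 22 on the mt- side, and with at least 20 reads per library in the high group the mt- side held 3.

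**Figure D1:**
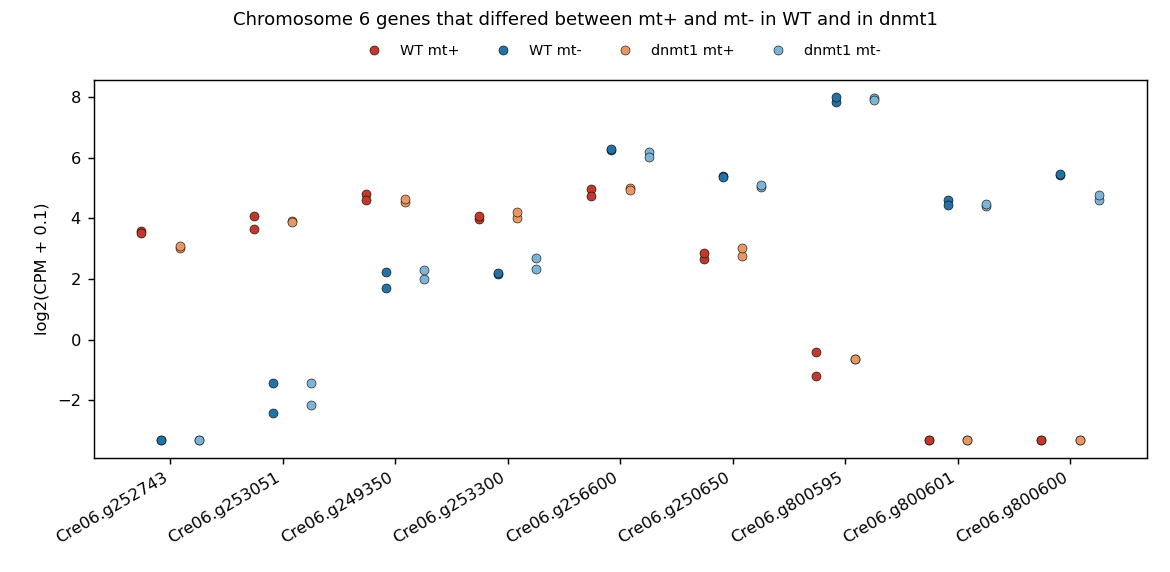
Level of the 9 chromosome 6 genes that differed at least 2-fold in the same direction in WT and in the libraries labelled dnmt1 and reached 10 CPM in a WT group. Each point is 1 library, the vertical axis is log2(CPM + 0.1), and the horizontal axis gives the gene IDs, ordered by their WT fold change. In every gene the libraries of 1 mating type lie together whatever the dnmt1 label, and Cre06.g252743, Cre06.g800601 and Cre06.g800600 sit at 0 reads in 1 mating type.

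The mating-type region was taken as the IDs Cre06.g250650 to Cre06.g255450, which list 84 genes. Of these 70 were tested, and 15 were higher and 16 lower in WT mt+, so that 44.3% were called against 21.5% of all genes. Their median log2 fold change was -0.03, and neither direction prevailed among these IDs. The range leaves out every chromosome 6 ID whose number begins with 8, Cre06.g800595, Cre06.g800600 and Cre06.g800601 among them. The WT groups did not overlap in 53 of the 70, against 58.2% of all tested genes. Of the 31 called genes, 24 were called in the same direction in the libraries labelled dnmt1 and 0 in the opposite direction. Over all 3280 genes called in WT, 826 were called in the same direction and 396 in the opposite one. Leaving out WT mt- replicate 1 gave 11 higher and 8 lower genes in the region, and leaving out its replicate 2 gave 12 and 10.

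Most called genes of the region had reads in both strains and differed by less than 2-fold; 8 higher and 3 lower ones passed a 2-fold minimum. Cre06.g250650, first in the ID range, had 6.29 and 7.20 CPM in WT mt+ and 41.7 and 41.0 CPM in WT mt- (-2.61 ± 0.13, edgeR, adjusted p = 5.69e-09). Cre06.g253300 had 15.6 and 16.7 CPM in WT mt+ and 4.39 and 4.45 CPM in WT mt- (1.87 ± 0.18, edgeR, adjusted p = 5.75e-06). Both genes kept their direction in the libraries labelled dnmt1, with log2 fold changes of -2.18 ± 0.13 and 1.59 ± 0.17. At higher levels, Cre06.g254400 had 236 and 182 CPM in WT mt+ and 93.8 and 92.0 CPM in WT mt- (1.17 ± 0.11, edgeR, adjusted p = 5.30e-06). Cre06.g251500 had 33.8 and 41.5 CPM in WT mt+ and 80.2 and 82.6 CPM in WT mt- (-1.10 ± 0.11, edgeR, adjusted p = 6.78e-06). In neither of these genes did a WT library of one strain reach the WT level of the other strain.

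Some genes of the region behaved otherwise. Cre06.g252600 had 74.8 and 71.0 CPM in WT mt+ and 37.3 and 33.8 CPM in WT mt- (1.03 ± 0.10, edgeR, adjusted p = 5.27e-06), while its level was 28.0 and 29.1 CPM under the label dnmt1 mt+ and 34.1 and 32.96 CPM under dnmt1 mt-. Only the WT mt+ libraries were high, and the 2 contrasts differed in this gene (edgeR, adjusted p = 2.02e-05). Among the 14 genes of the region with too few reads to be tested were 3 with a divided pattern: Cre06.g252871 had 5 and 6 reads in WT mt+, Cre06.g253000 had 10 and 4, and Cre06.g252250 had 4 and 3, while none had a read in any mt- library of the study. MAT3 (Cre06.g255450), the retinoblastoma homologue that links cell size to division and the last gene of the range, had 83.0 ± 14.3 CPM in WT mt+ and 74.9 ± 2.74 CPM in WT mt- and was not called (0.15 ± 0.11, edgeR, adjusted p = 0.366).

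Along chromosome 6, the called genes that recurred in the libraries labelled dnmt1 were gathered at the low-numbered end. In the first 100 tested IDs, Cre06.g248750 to Cre06.g255500, 42.0% were called in WT and 32 were called in the same direction in the libraries labelled dnmt1. In the next 100, to Cre06.g261300, 33% were called and 12 recurred. In the other 11 stretches 15.0% to 29.4% were called and 1 to 7 recurred. Taken whole, chromosome 6 had 155 genes higher and 172 lower of 1337 tested (24.5%), which lay within the range of the other numbered chromosomes, 15.0% to 25.1%. The IDs give the order of the older numbering, not positions, and genes of the series beginning with 8 are not in that order.

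**Figure D2:**
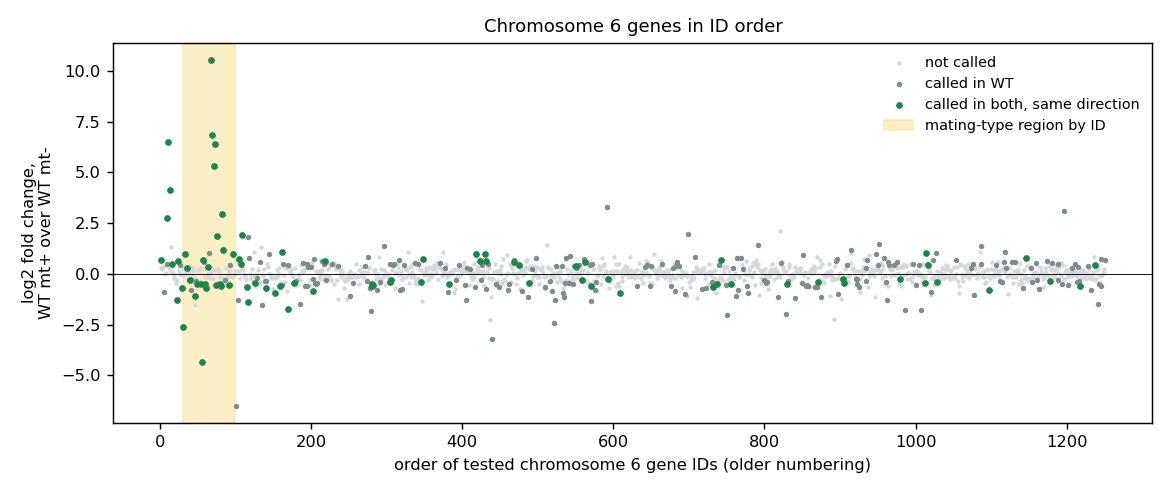
Log2 fold change of WT mt+ over WT mt- for the tested chromosome 6 genes of the older numbering, in ID order. Small pale points were not called, grey points were called in WT, green points were called in the same direction in the libraries labelled dnmt1, and the shaded band marks the IDs Cre06.g250650 to Cre06.g255450. The large recurring differences, up to a fitted 10.5 at Cre06.g252743, lie in and beside the band. That gene had no read in WT mt-, so its fitted value is not a measured fold.

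Across the genome the WT contrast and the contrast of the libraries labelled dnmt1 had 25.2% of the WT calls in common, counted in the same direction. In the libraries labelled dnmt1, 3363 genes were called (22.0%), 1628 higher (10.7%) and 1735 lower (11.4%) in mt+. The 826 genes called in the same direction in both were 5.41% of those tested, 340 higher and 486 lower in mt+, and the 396 called in opposite directions were 2.59%. The other 2058 genes called in WT were not called in the libraries labelled dnmt1. Pearson's r of the 2 fold changes was 0.254 over all tested genes, a description across genes. Leaving out 1 library moved the 826 to between 336 (WT mt- replicate 1) and 1513 (WT mt+ replicate 1), and the 396 to between 176 (WT mt- replicate 1) and 887 (WT mt+ replicate 2). The difference between the contrasts was itself called in 2109 genes (13.8%).

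How often a WT difference recurred varied with its fitted size, as a description. Of the 20 called genes with a fitted log2 fold change of 4 or more in either direction, 15 recurred in the same direction (75.0%). Of the 75 between 2 and 4, 20 did (26.7%). Among the 375 between 1 and 2, only 53 recurred (14.1%), and 82 were called in the opposite direction (21.9%). Of the 1575 between 0.5 and 1, 24.2% recurred, and of the 1235 under 0.5, 28.9% did. Most of the 15 that recurred at 4 or more had chromosome 6 IDs. Several of them had no read in 1 WT group, where a fold has no finite value and the fitted value alone sets the size class. Cre05.g800547, among them, had 0 and 0 reads in WT mt+ and 4 and 6 in WT mt-. Under the dnmt1 label the same gene had 259 to 558 reads per library. For comparison, the dnmt1 contrast called 10.7% of all tested genes with mt+ above mt- and 11.4% with mt+ below. Whether recurrence depends on size apart from such genes was not tested.

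**Figure D3:**
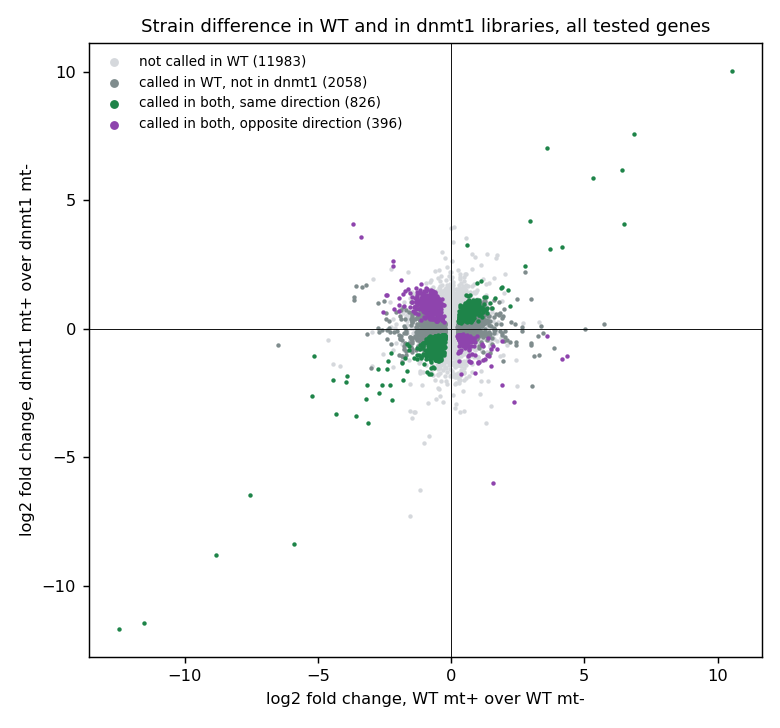
Log2 fold change of mt+ over mt- in the libraries labelled dnmt1 (vertical axis) against that in WT (horizontal axis) for the 15263 tested genes. Pale points were not called in WT, dark grey ones were called in WT alone (2058), green ones in both in the same direction (826) and purple ones in both in opposite directions (396). The far corners of the diagonal hold green points alone, while near the centre green and purple points mix.

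At a 2-fold difference in both contrasts, 53 genes recurred, 19 higher and 34 lower in mt+, while 55 were called in opposite directions. The 53 recurring genes were 11.3% of the 470 genes called at 2-fold in WT. On chromosome 6 lay 27 of them, against 0 to 4 on each other numbered chromosome. The 16 of the older numbering were mostly higher in mt+, 12 against 4 lower, and the 11 whose number begins with 8 were mostly lower, 3 higher and 8 lower. Over the genome, 14.1% of the 1156 tested genes of the series beginning with 8 were called, and 22.2% of the 14032 other nuclear genes, a difference that was not tested.

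The recurring genes off chromosome 6 were mostly lower in mt+. Cre10.g453500 had 1.19 and 0.944 CPM in WT mt+ and 11.9 and 12.9 CPM in WT mt- (-3.56 ± 0.26, edgeR, adjusted p = 3.31e-07), and its log2 fold change in the libraries labelled dnmt1 was -3.41 ± 0.28. Cre09.g406150 had 1.70 and 2.01 CPM in WT mt+ and 12.2 and 12.3 CPM in WT mt- (-2.70 ± 0.24, edgeR, adjusted p = 3.27e-06), with -2.49 ± 0.26 in the libraries labelled dnmt1. The strains were apart in every library of both genes. Cre01.g016700 had 0.595 and 0.826 CPM in WT mt+ and 11.4 and 10.5 CPM in WT mt- (-3.90 ± 0.33, edgeR, adjusted p = 2.14e-06), and its level was 0.478 and 0.671 CPM under the label dnmt1 mt+ and 2.54 and 1.498 CPM under dnmt1 mt-. Cre24.g755997, whose ID names no numbered chromosome, had 6.54 and 5.31 CPM in WT mt+ and 31.2 and 31.2 CPM in WT mt- (-2.41 ± 0.15, edgeR, adjusted p = 8.17e-08).

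Other strongly divided genes of the WT contrast did not recur. Cre16.g692800 had 22.7 and 22.2 CPM in WT mt+ and 5.94 and 4.99 CPM in WT mt- (2.02 ± 0.16, edgeR, adjusted p = 9.15e-07), while the libraries labelled dnmt1 had 17.1 ± 2.43 CPM in mt+ and 21.4 ± 2.01 CPM in mt- (SD, n = 2 each). The WT mt- libraries alone were low. Cre05.g245500 had 1.27 and 2.01 CPM in WT mt+ and 9.62 and 8.70 CPM in WT mt- (-2.44 ± 0.28, edgeR, adjusted p = 3.17e-05), and between 1.40 and 2.03 CPM in each library labelled dnmt1. Here the WT mt- libraries alone were high. Cre17.g723400 had 1.53 and 1.53 CPM in WT mt+ and 9.40 and 8.495 CPM in WT mt-, and between 4.70 and 8.97 CPM in the libraries labelled dnmt1, so that WT mt+ alone was low.

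Which WT group stood apart was counted over all genes, a count chosen after the data were seen. Both WT mt- libraries lay above or below all 6 other libraries in 2073 of the 3280 called genes (63.2%), and both WT mt+ libraries did so in 1046 (31.9%). The 4 mt+ libraries lay wholly above or wholly below the 4 mt- libraries in 1116 (34.0%), and a gene may count under more than one of these. The corresponding shares of all tested genes were 27.1%, 15.0% and 14.05%. In the mating-type region the strains were apart in 32 of 70 genes (45.7%). What sets the WT mt- libraries apart was not tested.

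Cells take up inorganic carbon through a set of transporters and carbonic anhydrases that is turned up when CO2 is scarce. Of the genes off chromosome 6 that averaged at least 5 CPM over the WT libraries and were higher in mt+, 3 carbonic anhydrase genes of this response had the largest fold changes. CAH4 (Cre05.g248400), a mitochondrial carbonic anhydrase, had 613 and 436 CPM in WT mt+ and 24.7 and 27.1 CPM in WT mt- (4.34 ± 0.14, edgeR, adjusted p = 1.73e-11). CAH5 (Cre05.g248450), its near-identical neighbour, had 233 and 174 CPM in WT mt+ and 10.7 and 12.5 CPM in WT mt- (4.14 ± 0.14, edgeR, adjusted p = 1.76e-11), and reads may be split between the copies. CAH1 (Cre04.g223100), the periplasmic enzyme, had 291.5 and 241 CPM in WT mt+ and 22.7 and 21.0 CPM in WT mt- (3.60 ± 0.11, edgeR, adjusted p = 8.57e-12). The fitted fold changes of WT mt+ over WT mt- were 20.3 (CAH4), 17.7 (CAH5) and 12.1 (CAH1). No WT library of one strain came near the WT libraries of the other.

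The same genes did not follow mating type in the libraries labelled dnmt1. CAH4 had 263 and 256 CPM in dnmt1 mt+ and 560 and 520 CPM in dnmt1 mt-, and its fold change was negative there (-1.06 ± 0.12, edgeR, adjusted p = 2.26e-05). CAH1 had 133 and 129 CPM in dnmt1 mt+ and 153 and 169 CPM in dnmt1 mt- (-0.30 ± 0.10, edgeR, adjusted p = 0.0371). The WT mt- libraries were thus the low ones of the study for CAH1, CAH4 and CAH5, below all 6 others.

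Of 18 tested genes of the low-CO2 list, 8 were higher and 5 lower in WT mt+ (72.2% called, against 21.5% of all tested genes), and the list's median was 0.56 (log2) against 0.02 over all genes. The background for each list below is 10.6% of tested genes called higher and 10.9% called lower. Higher beside the carbonic anhydrases were EPYC1 (Cre10.g436550), the linker protein that gathers Rubisco in the pyrenoid, at 164 and 113 CPM in WT mt+ and 84.9 and 84.7 CPM in WT mt- (0.71 ± 0.13), and HLA3 (Cre02.g097800), a bicarbonate transporter of the plasma membrane (0.72 ± 0.19). LCIA (Cre06.g309000), a chloroplast envelope channel, had 1.19 and 0.826 CPM in WT mt+ and 0.0887 and 0.135 CPM in WT mt- (3.11 ± 0.82), a difference at the edge of detection. CCP1 (Cre04.g223300), a carrier protein, and BST3 (Cre16.g663450), a bestrophin-like thylakoid protein, were higher by 1.49 ± 0.41 and 0.54 ± 0.12.

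Their close relatives went the other way. CCP2 (Cre04.g222750) had 6.46 and 4.72 CPM in WT mt+ and 12.9 and 11.7 CPM in WT mt- (-1.16 ± 0.20), and BST2 (Cre16.g663400) had 20.8 and 16.5 CPM in WT mt+ and 36.6 and 33.2 CPM in WT mt- (-0.92 ± 0.13). LCIB (Cre10.g452800), a stromal protein around the pyrenoid, was lower by a small amount, at 50.1 and 39.1 CPM in WT mt+ and 57.3 and 58.5 CPM in WT mt- (-0.38 ± 0.11). LCID (Cre04.g222800), related to LCIB, and CAH3 (Cre09.g415700), the carbonic anhydrase of the thylakoid lumen, had log2 fold changes of -1.81 ± 0.47 and -0.44 ± 0.10. CIA5 (Cre02.g096300), the regulator of the response, was not called, at 45.0 ± 2.00 CPM in WT mt+ and 51.7 ± 0.0277 CPM in WT mt- (edgeR, adjusted p = 0.163). The list held 5 higher genes without WT mt- replicate 1 or without replicate 2, and 2 and 3 lower ones.

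**Figure D4:**
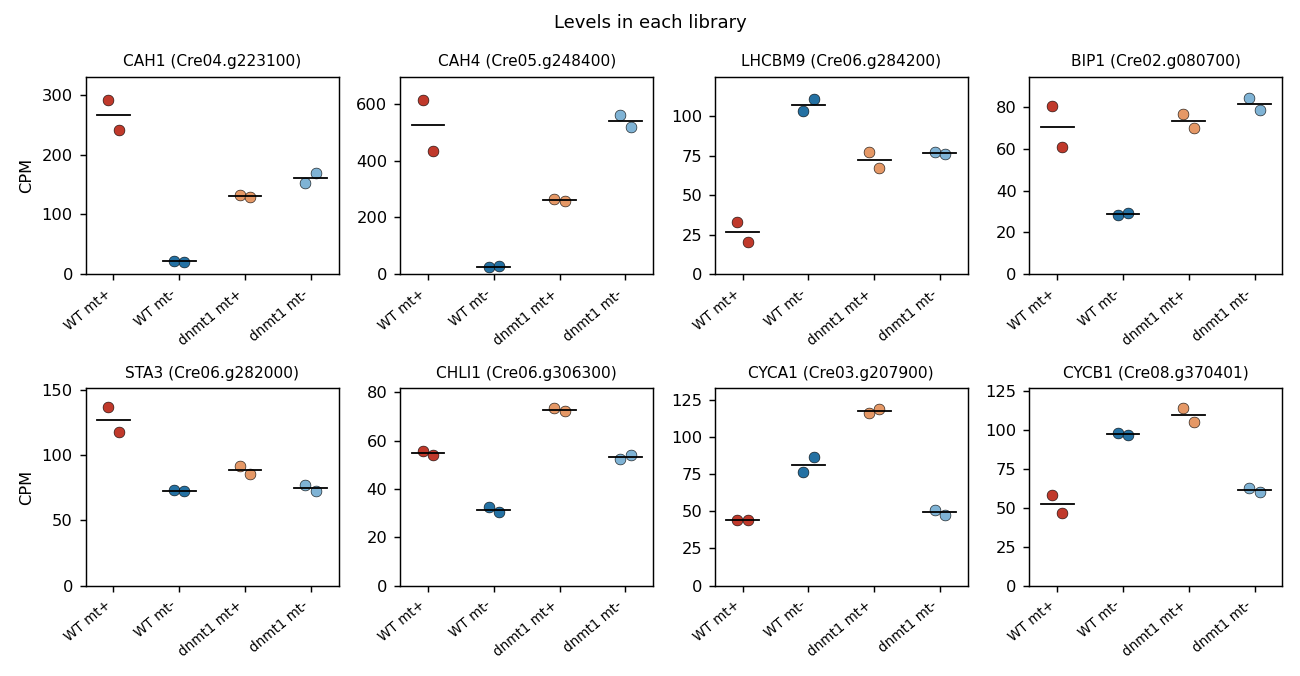
Level in CPM of 8 genes in each library, by group, with the group mean as a bar and each axis starting at 0. CAH1, CAH4 and BIP1 are lowest in WT mt-, LHCBM9 is lowest in WT mt+ and highest in WT mt-, and CYCA1 and CYCB1 are lower in mt+ than in mt- in WT while the order is turned round in the libraries labelled dnmt1.

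Of 21 tested genes of the light-harvesting antenna, 7 were higher and 1 lower in WT mt+ and 13 were not called (38.1% called, against 21.5% of all tested genes). A positive fold change was seen in 20, against 52.2% of all tested genes, and the median was 0.25 against 0.02 over all genes. LHCA4 (Cre10.g452050), of the photosystem I antenna, had 1021 and 935 CPM in WT mt+ and 754 and 790 CPM in WT mt- (0.34 ± 0.08, edgeR, adjusted p = 0.00689). LHCBM5 (Cre03.g156900), of the photosystem II antenna, had 1078 and 833 CPM in WT mt+ and 667 and 737 CPM in WT mt- (0.44 ± 0.11, edgeR, adjusted p = 0.00760). Neither gene overlapped between the WT groups, though neither was called with the 4 WT libraries fitted alone. The count of higher members was 15 without WT mt+ replicate 2, 0 without WT mt- replicate 1, 3 or 4 without any 1 of the libraries labelled dnmt1, and 0 when the 4 WT libraries were fitted alone. Related LHCBM genes are near-identical in places and may share reads.

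LHCBM9 (Cre06.g284200), an antenna protein known to rise under sulfur and nitrogen starvation, was the exception. It had 33.1 and 20.6 CPM in WT mt+ and 103 and 111 CPM in WT mt- (-2.02 ± 0.15, edgeR, adjusted p = 5.25e-07), and its level was 77.5 and 66.9 CPM under the label dnmt1 mt+ and 77.6 and 76.3 CPM under dnmt1 mt-, where the difference was small (-0.09 ± 0.14, edgeR, adjusted p = 0.695). LHCSR1 (Cre08.g365900), a photoprotection protein, was also lower, with 0.340 and 0.944 CPM in WT mt+ and 3.64 and 5.73 CPM in WT mt- (-2.74 ± 0.47, edgeR, adjusted p = 0.000827). The LHCSR3 copies (Cre08.g367500 and Cre08.g367400) averaged 0.923 ± 0.137 and 0.756 ± 0.349 CPM in WT mt+ and 0.671 ± 0.196 and 0.224 ± 0.0652 CPM in WT mt- (SD, n = 2 each) and were not called. PSBS1 (Cre01.g016600) and PSBS2 (Cre01.g016750) had at most 6 reads in a WT library.

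Of 17 nuclear photosystem and Rubisco genes 8 were higher and 0 lower in WT mt+ and 9 were not called (47.1% called, against 21.5% of all tested genes). All 17 had a positive fold change, against 52.2% of all tested genes, and the median was 0.25. PSBQ (Cre08.g372450), an oxygen-evolving complex subunit, had 1805 and 1718 CPM in WT mt+ and 1171 and 1284 CPM in WT mt- (0.52 ± 0.08, edgeR, adjusted p = 0.000426). PSBY (Cre10.g452100), a small photosystem II subunit, had 338 and 381 CPM in WT mt+ and 248 and 253 CPM in WT mt- (0.52 ± 0.09, edgeR, adjusted p = 0.000820). The mt+ libraries were above the mt- libraries in both. In these 17 genes WT mt- replicate 1 was below replicate 2 each time, by a median of 0.15 on the log2 scale. The count of higher members was 2 without WT mt- replicate 1, 13 without WT mt+ replicate 2, 4 without any 1 of the libraries labelled dnmt1, and 2 with the 4 WT libraries fitted alone. Over the libraries labelled dnmt1 the median was 0.00.

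Of 12 tested genes of chlorophyll synthesis, 8 were higher and 0 lower in WT mt+ and 4 were not called (66.7% called, against 21.5% of all tested genes), and the median was 0.44. The subunits of magnesium chelatase led: CHLD (Cre05.g242000) had 22.4 and 17.5 CPM in WT mt+ and 9.49 and 9.91 CPM in WT mt- (1.03 ± 0.15, edgeR, adjusted p = 0.000263), and CHLI1 (Cre06.g306300) had 55.6 and 54.0 CPM in WT mt+ and 32.6 and 30.3 CPM in WT mt- (0.80 ± 0.09, edgeR, adjusted p = 3.17e-05). Both were also higher in mt+ in the libraries labelled dnmt1, by 0.54 ± 0.14 and 0.46 ± 0.09. ALAD1 (Cre02.g091050), of early tetrapyrrole synthesis, was higher in WT by 0.67 ± 0.09 and was not called in the libraries labelled dnmt1 (-0.10 ± 0.09), and CHLG (Cre06.g294750), chlorophyll synthase, was higher in WT by 0.69 ± 0.11. CHLH1 (Cre07.g325500), the large chelatase subunit, had 19.3 ± 2.06 CPM in WT mt+ and 16.2 ± 1.80 CPM in WT mt- and was not called. The count of higher members was 4 without WT mt- replicate 1, without WT mt- replicate 2 and with the WT libraries alone, and 5 without WT mt+ replicate 1.

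**Figure D5:**
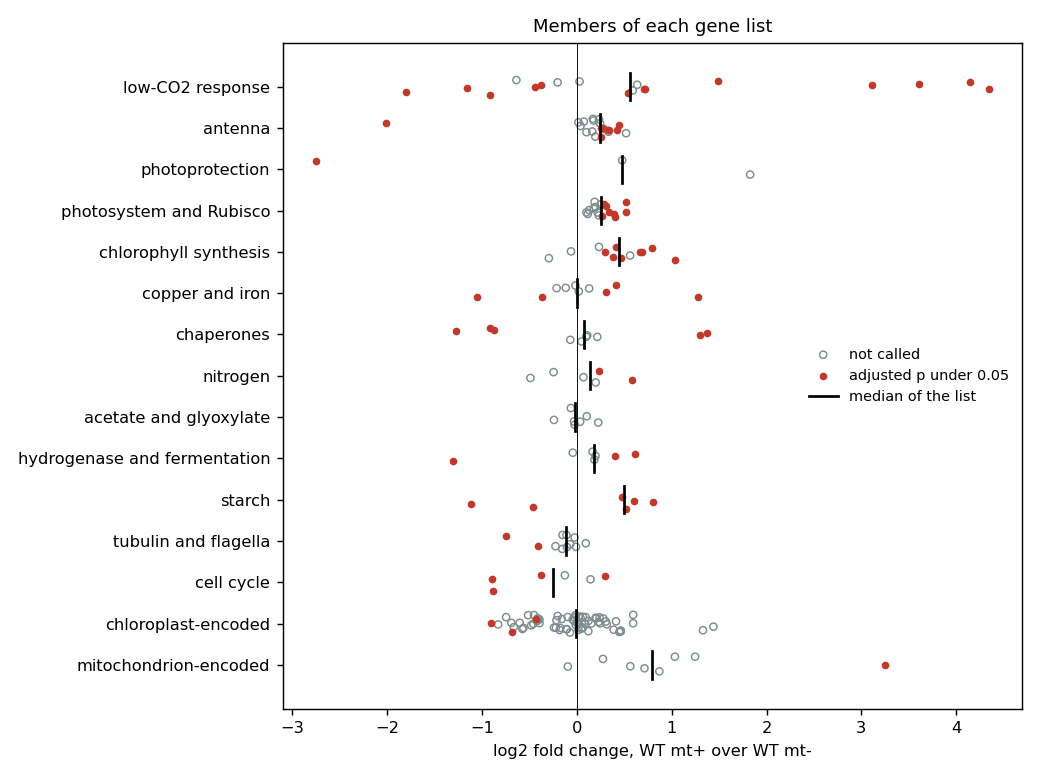
Log2 fold change of WT mt+ over WT mt- for each tested member of 15 gene lists, with filled points for adjusted p under 0.05, open points for members not called and a bar at the list's median. The photosystem and Rubisco members all lie right of 0, the low-CO2 and chaperone lists spread to both sides, and the acetate and glyoxylate list holds open points alone.

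All 6 starch synthesis genes were called, 4 higher and 2 lower in WT mt+, against 21.5% of all tested genes. In the libraries labelled dnmt1 0 of them were called, against 22.0% of all tested genes. STA3 (Cre06.g282000), a soluble starch synthase, had 137 and 117 CPM in WT mt+ and 72.9 and 72.3 CPM in WT mt- (0.81 ± 0.09, edgeR, adjusted p = 2.83e-05). STA1 (Cre13.g567950) and STA6 (Cre03.g188250), the subunits of ADP-glucose pyrophosphorylase that make the glucose donor, were higher by 0.60 ± 0.11 and 0.51 ± 0.08, and STA11 (Cre03.g181500), a disproportionating enzyme, by 0.48 ± 0.11. STA7 (Cre03.g155001), a debranching isoamylase, had 5.44 and 6.73 CPM in WT mt+ and 14.5 and 12.0 CPM in WT mt- (-1.12 ± 0.19, edgeR, adjusted p = 0.000717). STA2 (Cre17.g721500), the granule-bound starch synthase, had a log2 fold change of -0.46 ± 0.09. The difference between the WT contrast and that of the libraries labelled dnmt1 was called in 5 of the 6, against 13.8% of all tested genes.

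Copper and iron genes showed no common direction, with 3 higher and 2 lower of 10 tested, against 10.6% higher and 10.9% lower over all tested genes, and a median of 0.00. CYC6 (Cre16.g651050), cytochrome c6, which replaces plastocyanin when copper is short, had 17.5 and 14.2 CPM in WT mt+ and 5.85 and 7.28 CPM in WT mt- (1.27 ± 0.18, edgeR, adjusted p = 0.000173). In the libraries labelled dnmt1 the order was the other way, with 7.41 and 8.86 CPM in mt+ and 19.3 and 17.7 CPM in mt-. CRR1 (Cre09.g390023), the copper response regulator, had 615 ± 38.6 CPM in WT mt+ and 606 ± 1.31 CPM in WT mt- and was not called (0.02 ± 0.08, edgeR, adjusted p = 0.879). PCY1 (Cre03.g182551), plastocyanin itself, was higher in WT mt+ by 0.31 ± 0.10 (edgeR, adjusted p = 0.0297). CTR1 (Cre13.g570600), a copper transporter, was lower, at -0.37 ± 0.10 (edgeR, adjusted p = 0.0190). Both calls were lost in some alternatives. FEA1 (Cre12.g546550), an iron-assimilation protein of the periplasm, had 5.78 and 3.54 CPM in WT mt+ and 8.52 and 10.4 CPM in WT mt- (-1.05 ± 0.26), and FEA2 (Cre12.g546600) had a log2 fold change of 0.42 ± 0.13. The lower count was 4 without WT mt+ replicate 1, 1 without WT mt+ replicate 2 or WT mt- replicate 1 and 0 without WT mt- replicate 2, and the higher count was 1 without WT mt- replicate 1 or any 1 of the libraries labelled dnmt1 and 2 without WT mt+ replicate 1.

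Chaperone genes moved both ways. BIP1 (Cre02.g080700), a chaperone of the endoplasmic reticulum, had 80.4 and 61.1 CPM in WT mt+ and 28.3 and 29.2 CPM in WT mt- (1.29 ± 0.12, edgeR, adjusted p = 4.81e-06), and its neighbour BIP2 (Cre02.g080600), which may share reads with it, had 19.03 and 15.9 CPM in WT mt+ and 6.65 and 6.74 CPM in WT mt- (1.38 ± 0.16, edgeR, adjusted p = 3.35e-05). HSP70B (Cre06.g250100), the chloroplast HSP70, was lower, with 43.0 and 32.0 CPM in WT mt+ and 89.2 and 90.3 CPM in WT mt- (-1.27 ± 0.11, edgeR, adjusted p = 3.12e-06). Its ID stands just before the mating-type region, and it was lower in mt+ in the libraries labelled dnmt1 too (-0.74 ± 0.11, edgeR, adjusted p = 0.000171). The small heat shock proteins HSP22E (Cre14.g617450) and HSP22F (Cre14.g617400), which are close copies, had log2 fold changes of -0.88 ± 0.11 and -0.92 ± 0.11. The cytosolic HSP70A (Cre08.g372100) and HSP90A (Cre09.g386750) were not called, with log2 fold changes of 0.11 ± 0.09 and 0.10 ± 0.09. Of 10 tested members 2 were higher and 3 lower, against 10.6% and 10.9% of all tested genes, with a median of 0.07.

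Of 7 genes of acetate activation and the glyoxylate cycle, edgeR called 0 in WT (against 21.5% of all tested genes). Only ACS3 (Cre07.g353450), an acetyl-CoA synthetase, had an unadjusted p under 0.05. It was called lower in WT mt+ by DESeq2, and in edgeR with library size scaling or no filter on low counts. In the libraries labelled dnmt1, 2 of the 7 were lower in mt+, against 11.4% of all tested genes. ACS3 was among them (-0.31 ± 0.09, edgeR, adjusted p = 0.0206). The medium held acetate in every culture. ICL1 (Cre06.g282800), isocitrate lyase, had 5093 and 4710 CPM in WT mt+ and 4755 and 5206 CPM in WT mt- (-0.02 ± 0.09, edgeR, adjusted p = 0.876). MAS1 (Cre03.g144807), malate synthase, had 2278 and 2163 CPM in WT mt+ and 2304 and 2336 CPM in WT mt- (-0.06 ± 0.08, edgeR, adjusted p = 0.612).

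Genes of hydrogen production and fermentation gave 2 higher and 1 lower of 7 tested (42.9% called, against 21.5% of all tested genes). HYDA2 (Cre09.g396600), a hydrogenase, had 397 and 349 CPM in WT mt+ and 249 and 237 CPM in WT mt- (0.62 ± 0.08, edgeR, adjusted p = 0.000161), while HYDA1 (Cre03.g199800), the other hydrogenase, had 865 ± 5.54 CPM in WT mt+ and 890 ± 11.0 CPM in WT mt- (-0.04 ± 0.08) and was not called. FDX5 (Cre17.g700950), a ferredoxin known to rise without oxygen, had 96.9 and 57.7 CPM in WT mt+ and 177 and 203 CPM in WT mt- (-1.31 ± 0.16, edgeR, adjusted p = 4.81e-05). ADH1 (Cre17.g746997), the aldehyde-alcohol dehydrogenase of ethanol formation, was higher by 0.41 ± 0.10. The higher count was 5 without WT mt+ replicate 2 and 1 without WT mt- replicate 2.

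Of 6 tested nitrogen genes, 2 were higher and 0 lower in WT mt+ (33.3% called, against 21.5% of all tested genes). GSN1 (Cre13.g592200), NADH-dependent glutamate synthase, had 614 and 458 CPM in WT mt+ and 358 and 358 CPM in WT mt- (0.58 ± 0.11, edgeR, adjusted p = 0.00164). GLN1 (Cre02.g113200), a glutamine synthetase, was higher by 0.23 ± 0.08 (edgeR, adjusted p = 0.0391), by a margin that was lost in several alternatives. The other 4 were not called. NIT1 (Cre09.g410950), nitrate reductase, had 0 reads in all 8 libraries, and AMT4 (Cre13.g569850), an ammonium transporter, had 2 and 2 reads in WT mt+ and 10 and 4 reads in WT mt-.

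Of 6 cell cycle genes 3 were lower and 1 higher in WT mt+ (66.7% called, against 21.5% of all tested genes). CYCA1 (Cre03.g207900), an A-type cyclin, had 43.8 and 43.9 CPM in WT mt+ and 76.4 and 86.2 CPM in WT mt- (-0.89 ± 0.09, edgeR, adjusted p = 1.24e-05). CYCB1 (Cre08.g370401), a mitotic cyclin, had 58.4 and 47.0 CPM in WT mt+ and 98.3 and 97.2 CPM in WT mt- (-0.90 ± 0.10, edgeR, adjusted p = 2.80e-05), and CDKB1 (Cre08.g372550), a mitotic kinase, was lower by a smaller amount (-0.38 ± 0.09). All 3 were higher in mt+ in the libraries labelled dnmt1, by 1.26 ± 0.09, 0.83 ± 0.10 and 0.96 ± 0.09. CDKA1 (Cre10.g465900), the main cyclin-dependent kinase, was higher in mt+ in WT (0.29 ± 0.10, edgeR, adjusted p = 0.0464) and in the libraries labelled dnmt1 (0.70 ± 0.10), and its WT call was lost in 11 of 16 alternatives: without either WT mt- replicate or any 1 of the libraries labelled dnmt1, with the 4 WT libraries alone, with DESeq2, with RLE or library size scaling, and with no filter on low counts. PCNA1 (Cre12.g515850), the sliding clamp of DNA replication, had 117 and 119 CPM in WT mt+ and 128 and 130 CPM in WT mt- and was not called. The labels do not give a stage of the cycle, and the share of dividing cells and the RNA per cell cannot be told apart here.

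Of 11 tubulin and flagellar genes 0 were higher and 2 lower in WT mt+ (18.2% called, against 21.5% of all tested genes), with a median of -0.11. FLA10 (Cre17.g730950), the kinesin that carries flagellar cargo outward, had 133 and 135 CPM in WT mt+ and 182 and 173 CPM in WT mt- (-0.41 ± 0.08, edgeR, adjusted p = 0.00200). It was also lower in mt+ in the libraries labelled dnmt1 (-0.32 ± 0.08, edgeR, adjusted p = 0.00845). FMG1B (Cre09.g392867), the main glycoprotein of the flagellar membrane, had 78.3 and 45.4 CPM in WT mt+ and 98.3 and 108 CPM in WT mt- (-0.75 ± 0.17, edgeR, adjusted p = 0.00590), with WT mt+ replicate 2 well below replicate 1. The count of lower members was 6 without WT mt+ replicate 1, 3 without WT mt+ replicate 2 and 1 without WT mt- replicate 2. The tubulins TUA1 (Cre03.g190950), TUA2 (Cre04.g216850), TUB1 (Cre12.g542250) and TUB2 (Cre12.g549550), whose copies share sequence, had log2 fold changes between -0.11 and 0.09, and none was called.

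Chloroplast-encoded genes made up 0.0407% to 0.0660% of the reads of each WT library. Of 67 tested, 0 were higher and 3 lower in WT mt+ (4.48% called, against 21.5% of all tested genes), with a median of -0.01, and in the libraries labelled dnmt1 16 were higher and 0 lower, against 10.7% and 11.4% of all tested genes. CreCp.g802317 had 5.52 and 9.50 CPM in WT mt+ and 13.4 and 15.4 CPM in WT mt- (-0.90 ± 0.22, edgeR, adjusted p = 0.00966). The count rests on single libraries: 17 were lower without WT mt+ replicate 1, leaving out WT mt+ replicate 2 gave 12 higher and 2 lower, and leaving out WT mt- replicate 2 gave 0 lower. Of 8 mitochondrial genes 1 was called (12.5%), CreMt.g802344, with 0.850 and 0.354 CPM in WT mt+ and 0.0887 and 0 CPM in WT mt-, and 0 were called without WT mt+ replicate 1, either WT mt- replicate or either library labelled dnmt1 mt-, and 4 without WT mt+ replicate 2. How organelle transcripts entered these libraries is not given in the labels.

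Genes that passed the threshold in both contrasts with opposite signs and at least a 2-fold difference in each numbered 55, against 53 with the same sign. Of these 13 were higher in WT mt+ and 42 were lower. The first group includes CAH4, CAH5, BIP2 and CYC6. Among the genes without a symbol, Cre03.g165700 had 33.5 CPM in WT mt+ and 125 CPM in WT mt- on average, and its means were 107 CPM under the label dnmt1 mt+ and 28.4 CPM under dnmt1 mt-. It was the most highly expressed of the 42 in WT mt-.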

How the data were processed

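RNA-seq of 8 libraries in 4 groups of 2 biological replicates was analysed from the table of raw counts per gene that the authors deposited. Per the labels' protocols, total RNA went into libraries made with a NEBNext kit. DESeq2, featureCounts, Picard, STAR 2.7.6 and Trim Galore 2.6 are named in the submitters' processing notes, with no role or order. Counting rules and strand use are not given in the sources used here. The genome build is named only by the version suffix of the gene IDs, which is left off here. A deposited table of normalized values was not used. Odd numbers made up 25.5% to 30.8% of the counts between 2 and 19, so both mates of a pair may have been counted and low counts may overstate the fragments. Reads carry no molecular identifiers, so floors cover counting error only.

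Genes kept by filterByExpr (15263 of 17693, with 572 at 0 reads in all libraries) were given TMM factors and fitted in edgeR 4.0.16 (R 4.3.3; glmQLFit, 1 mean per group, all 8 libraries, 4 residual degrees of freedom). Contrasts were tested 2-sided with glmQLFTest, p-values were adjusted by Benjamini-Hochberg over the 15263 genes, and the threshold was 0.05. Every adjusted p printed comes from this test. CPM are counts over the TMM-scaled library size. A standard error is the log2 fold change divided by the square root of F, and for genes with few reads it can be smaller than counting error. Where a group had no read, the fold is a bound computed from 3 counts in each of its libraries (0.133 to 0.255 CPM). Scripts were tested on simulated data.

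Named genes were the first 10 each way with an adjusted p under 0.05, at least 5 CPM over the WT libraries and no overlap, then the 4 members of each list with the smallest p, called genes of the mating-type region, DMT1 and genes with no read in one group. Further members and genes that did not recur were named after their values were seen. The comparison and the lists were chosen with earlier results of these data known. The lists hold 149 loci, of which the RefSeq table at hand matched 148 (15386 of all 17693 IDs, 87.0%); it holds no symbols, follows an older numbering and is not the files' build, so no coordinates or sequences are given. Alternatives were DESeq2 1.42.0, its size factors, library size scaling, other filters, a 2-fold minimum, the compared groups alone, the replicate number as a block, halved counts and each library left out.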

Additional observations from a re-analysis of the deposited data

Results flagged for a closer look

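The mt+ minus mt- difference differed between WT and the libraries labelled dnmt1 by 1 or more on the log2 scale, in edgeR's test of the difference itself, in 25 of the named genes. The values below are the WT log2 difference minus that of the libraries labelled dnmt1, and all had an adjusted p under 0.05. Named genes were mostly picked by their WT contrast, whose libraries enter this difference too. A value with the sign of the WT difference is therefore no separate result.

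Of genes higher in WT mt+, the value was 5.40 for CAH4, 5.31 for CAH5 and 3.90 for CAH1, carbonic anhydrases of the low-CO2 response. It was 2.73 for Cre02.g144650, 2.50 for Cre12.g560902 and 2.35 for Cre16.g692800. Cre06.g252600, of the mating-type region, had 1.26. CYC6 (2.46), BIP2 (2.39) and BIP1 (1.45) had values of the same sign, and so did CreMt.g802338 (1.54), which was not called in WT. DMT1, not called in WT, had 2.66.

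Values were negative for the genes lower in WT mt+. They were -3.21 for Cre17.g723400, -2.81 for Cre05.g245500 and -2.08 for Cre01.g016700, the last lower in mt+ in both contrasts. LHCSR1 had -2.76, LHCBM9 -1.93, STA7 -1.47, BST2 -1.42 and HSP22F -1.08. The cell cycle genes CYCA1, CYCB1 and CDKB1 had -2.14, -1.73 and -1.35. Of chloroplast genes, CreCp.g802317 had -1.82 and CreCp.g802274, not called in WT, -1.58.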

How the results depend on the processing

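No called named gene turned its direction under the alternatives run gene by gene (all but the 2-fold minimum), while 3 uncalled ones near 0, DMT1, ACH1 and HYDG, changed sign in some. Of 91 named genes called, 60 kept their call in every such alternative in which they were tested (the 10 CPM minimum tested 79 of 107 named genes) and 31 lost it in at least 1, among them LHCA4, LHCBM5, GLN1, CDKA1 and FEA1; the cause was not tested. With the compared groups alone, WT mt+ had 791 genes higher and 980 lower, and the dnmt1 label 2589 and 2632. With a 2-fold minimum the counts were 185 and 285 in WT, 395 and 207 in the libraries labelled dnmt1, and 239 and 592 for the difference of the contrasts. A mean of at least 10 CPM left 1133 lower in the libraries labelled dnmt1, and library size scaling left 690 higher in the difference. Genes with no read in one group numbered 4 (mt+) and 22 (mt-) where up to 2 reads were allowed, and 3 (mt-) at 20 reads.

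Leaving out 1 library gave 566 to 2499 genes higher and 740 to 2370 lower in WT mt+, and 779 to 2620 higher and 673 to 2780 lower in the libraries labelled dnmt1 mt+. For the difference of the contrasts it gave 453 to 2348 and 624 to 1993, and for genes called in both contrasts 336 to 1513 in the same direction and 176 to 887 in the opposite one. The library left alone in its group is assumed to vary like the others.

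Replicate numbers are shared between groups but nothing in the labels pairs them: deviations of same-numbered libraries had r of -0.05 in WT and 0.06 under the dnmt1 label. With the replicate block, 1775 genes were higher and 1822 lower in WT mt+, and 3272 of the 3280 calls were kept. With 2 libraries a group, p-values measure the spread between these libraries only, and genes of a few reads are limited by depth.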

Other observations

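Of the 470 genes called in WT with at least a 2-fold difference, both WT mt+ libraries were below all 6 others in 159 and above them in 61, and both WT mt- libraries were above in 139 and below in 119. The strains were wholly apart in 141, 69 with mt+ above and 72 with mt+ below.

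Among the lists, both WT mt- libraries lay below all 6 others in 13 of 17 photosystem and Rubisco genes, 11 of 21 antenna genes, 8 of 12 chlorophyll synthesis genes and 8 of 18 low-CO2 genes. Over all tested genes they did so in 2130 of 15263. These lists were chosen with earlier results known, and the counts are a description.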
